A study of Mus musculus with 4 samples.

Results

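Heat shock proteins and their co-chaperones were examined by RNA-seq in a mouse large pre-B cell line. Members were taken by gene symbol. They were the HSP70 genes (Hspa), the HSP110 gene Hsph1, the HSP90 genes, the mitochondrial chaperonin pair Hspd1 and Hspe1, the small heat shock protein genes (Hspb), the subunits Cct2 to Cct8 of the chaperonin TRiC, and the J-domain genes (Dnaja, Dnajb and Dnajc). That gave 81 of 23420 genes. The rule leaves out Tcp1, the remaining TRiC subunit, and it takes in Hspb11, which encodes a subunit of the intraflagellar transport machinery. Cells of one group carried a retrovirus with green fluorescent protein and a short hairpin against Myb, labelled shMyb (2 libraries). The control cells carried the same kind of vector with a hairpin against luciferase, labelled shLuc (2 libraries). All cells came from a single line of genotype Irf4/8-/-, so the lack of both factors is shared by the 2 groups. They were grown on a layer of OP9 stromal cells with 10 ng/ml of interleukin 7, and green cells were sorted 72 hours after transduction. Duplicates came from separate sets of 12 wells each, and with a single line the p-values cover only variation between such sets of wells.

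HSP70 proteins bind exposed stretches of unfolded chains and release them in a cycle driven by ATP. J-domain proteins bring clients to HSP70 and start ATP hydrolysis, exchange factors such as HSP110 and BAG proteins end the cycle, and HSP90 with its own co-chaperones completes the folding of kinases and receptors. The chaperonins enclose their clients: TRiC folds actin and tubulin in the cytosol, and the product of Hspd1 with its lid, the product of Hspe1, folds proteins in the mitochondrial matrix. In dividing lymphocytes the constitutive forms are abundant, whereas Hspa1a and Hspa1b are classically induced by heat shock factor 1 under stress.

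The libraries labelled shMyb held 38318335 and 36573743 counts, and those labelled shLuc held 40701550 and 44682954. Myb itself was at 617 and 639 CPM (counts scaled to a common library total) in the libraries labelled shMyb, against 616 and 600 CPM in shLuc. Its log2 fold change was 0.05 (SE 0.04, adjusted p = 0.283, edgeR's quasi-likelihood test). It was called higher when libraries were scaled by their totals alone (0.11) and after a correction for the trend of fold change with abundance (0.15). The transcript was thus not lower in the libraries labelled shMyb, and directions below are differences between libraries that carry these labels. Of 10 large pre-B markers 6 were called higher, among them Il2ra (0.88), and 3 lower, among them Il7r (-0.52), so markers of the line differed between the same libraries as the chaperone genes, and their part in those values was not tested. Cd79a and Vpreb1 were present at 1057 and 1038 CPM and at 748 and 736 CPM in the libraries labelled shMyb, against 889 and 908 CPM and 893 and 922 CPM in shLuc. Of 10 OP9 markers 9 were tested, 2 were called higher and 1 lower, and their summed level was 49.9 and 56.7 CPM in the libraries labelled shMyb, against 67.4 and 51.7 CPM in shLuc. Of 9 myeloid markers 7 were tested and 4 were called higher, at summed levels of 7.80 and 9.56 CPM against 4.63 and 3.65 CPM in shLuc. Shares over all tested genes were 30.6% higher and 31.7% lower, with 37.4% higher below a mean of 10 CPM. The list of T cell markers and the list of red cell markers each summed to at most 0.107 CPM in any library. Trac and Hbb-bt, also on these lists, had no row in the counts.

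Promoter sequence is shown for 4 genes that carry the contrasts described below: Hspe1 of the chaperonin pair, Hsph1, the inducible Hspa1b and the small heat shock gene Hspb8. The sequences are RefSeq windows of 250 bases before and 50 after a transcription start (GRCm38.p6), printed 5' to 3' on the gene's strand. Capitals mark each pair of inverted units of the heat shock element, the motif bound by heat shock factors: GAA and TTC in either order with any 2 bases between them. Each order reads alike on both strands. Hspe1 and Hspd1 lie head to head on chromosome 1, and the Hspe1 window (chr1:55087898-55088197, plus strand) shares 285 bases with the window of the second Hspd1 start on the minus strand. Hsph1 is at chr5:149636287-149636586 (minus strand), Hspa1b at chr17:34959189-34959488 (minus strand) and Hspb8 at chr5:116422815-116423114 (minus strand).
Hspe1: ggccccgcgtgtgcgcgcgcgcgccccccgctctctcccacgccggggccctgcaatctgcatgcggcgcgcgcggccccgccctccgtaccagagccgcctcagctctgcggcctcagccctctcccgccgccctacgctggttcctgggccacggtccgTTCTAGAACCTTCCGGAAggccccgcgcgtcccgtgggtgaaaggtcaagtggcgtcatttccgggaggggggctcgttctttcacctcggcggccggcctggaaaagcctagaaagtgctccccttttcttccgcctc
Hsph1: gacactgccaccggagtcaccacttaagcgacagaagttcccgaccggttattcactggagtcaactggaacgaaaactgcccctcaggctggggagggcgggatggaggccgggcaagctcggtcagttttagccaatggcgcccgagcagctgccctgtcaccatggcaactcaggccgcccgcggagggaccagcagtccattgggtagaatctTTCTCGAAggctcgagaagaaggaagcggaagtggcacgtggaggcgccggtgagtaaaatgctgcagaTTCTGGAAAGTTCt
Hspa1b: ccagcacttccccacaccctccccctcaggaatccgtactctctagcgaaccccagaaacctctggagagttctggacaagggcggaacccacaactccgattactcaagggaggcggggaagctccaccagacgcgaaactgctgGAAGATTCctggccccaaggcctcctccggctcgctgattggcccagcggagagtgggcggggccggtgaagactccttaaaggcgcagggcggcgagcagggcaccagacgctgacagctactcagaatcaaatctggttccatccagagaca
Hspb8: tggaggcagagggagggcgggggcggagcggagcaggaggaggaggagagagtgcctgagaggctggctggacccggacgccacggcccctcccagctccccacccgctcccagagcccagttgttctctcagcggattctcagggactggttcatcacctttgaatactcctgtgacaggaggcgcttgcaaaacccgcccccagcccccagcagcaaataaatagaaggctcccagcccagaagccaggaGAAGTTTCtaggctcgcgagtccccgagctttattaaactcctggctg

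The run shared by Hspe1 and Hspd1 joined its units without a break, and it held 2 overlapping copies of the 3-unit form, in which GAA and TTC alternate over 3 units with 2 bases between neighbours, searched on both strands. Each 3-unit match contains 2 overlapping 2-unit matches. The Hsph1 window held 1 such copy, 36 bases downstream of the start. Hspa1b and Hspb8 held a single 2-unit site each, at -104 and 2 bases from the start. The Hspa1a window differed from that of Hspa1b at 4 of 300 bases and held the same site. Windows were found for 66 members. The 3-unit form stood in 4 of them (6.06%), namely Hspd1, Hspe1, Hsph1 and Dnajb6, against 0.662% of 27025 genes with a window. Hspd1 counts only through its second start, where the run is the one shared with Hspe1, and the window of its first start held no 2-unit or 3-unit site. The 2-unit form stood in 20 of the 66 (30.3%, against 17.0% of all genes), and the CCAAT box, read on both strands, in 29 (43.9%, against 41.1%). Of the 4 members with the 3-unit form, Hspd1, Hspe1 and Hsph1 were called lower and Dnajb6 was not called. These matches are descriptions of sequence and not of binding.

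Summed over all members, chaperone transcripts took a smaller share of the libraries labelled shMyb. The 81 genes held 1.58% and 1.55% of counts in those libraries, against 1.80% and 1.84% in shLuc (Wilson 95% intervals 1.573 to 1.581, 1.551 to 1.559, 1.798 to 1.806 and 1.832 to 1.840, counting error only). The groups did not overlap. Abundant genes in general, the 2560 tested ones averaging 100 CPM or more, also summed lower without overlap. They took 711310 and 702554 CPM in the libraries labelled shMyb, against 746176 and 752974 CPM in shLuc. The 28 members in that range took 14554 and 14208 CPM, against 17343 and 17798 CPM in shLuc. The part of the general difference in the chaperone share was not tested. The HSP90 genes alone held 0.563% and 0.555% of counts in the libraries labelled shMyb, against 0.627% and 0.635% in shLuc. The Dnajc genes, 28 of the 81, held 0.179% and 0.181%, against 0.181% and 0.18% in shLuc, and overlapped between the groups. Every other family lay lower without overlap. In bulk RNA, less transcript per cell and fewer cells that carry it cannot be told apart. Without a stated strand setting, reads cannot be told apart where exons overlap another gene on the opposite strand, as for Cct6a (Psph), Cct7 (Pradc1), Cct8 (Usp16), Dnaja1 (Smu1), Dnaja3 (Coro7), Hspa12a (Eno4) and Dnajc19 (Fxr1).

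Of the 81 members 69 passed the filter on low counts, and of these 39 were called lower, 10 higher and 20 not called at an adjusted p below 0.05. Fold changes in parentheses below are on the log2 scale, shMyb over shLuc. The lower calls made up 56.5% of tested members. Over all 12610 tested genes 31.7% were called lower and 30.6% higher, or 62.2% in either direction. Called members numbered 49 in all. Tested members had a median log2 fold change of -0.16, against 0.0048 for all tested genes. The groups did not overlap for 43 members that lay lower and 18 that lay higher, against 41.2% and 41.0% of all tested genes. The abundant members accounted for most lower calls. Of 28 members with a mean of at least 100 CPM, 23 were called lower and 0 higher in edgeR's test, at a median of -0.29. None of these 28 was higher at an unadjusted p below 0.05, by DESeq2 or by limma-voom, while 2 were called higher with library totals alone and 3 with the trend correction. Over all 2560 tested genes at that level 47.5% were called lower and 25.5% higher, at a median of -0.07. Of 18 tested members below 10 CPM, 7 were called higher and 2 lower, while 37.4% of all tested genes at that level were called higher.

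**Figure D1:**
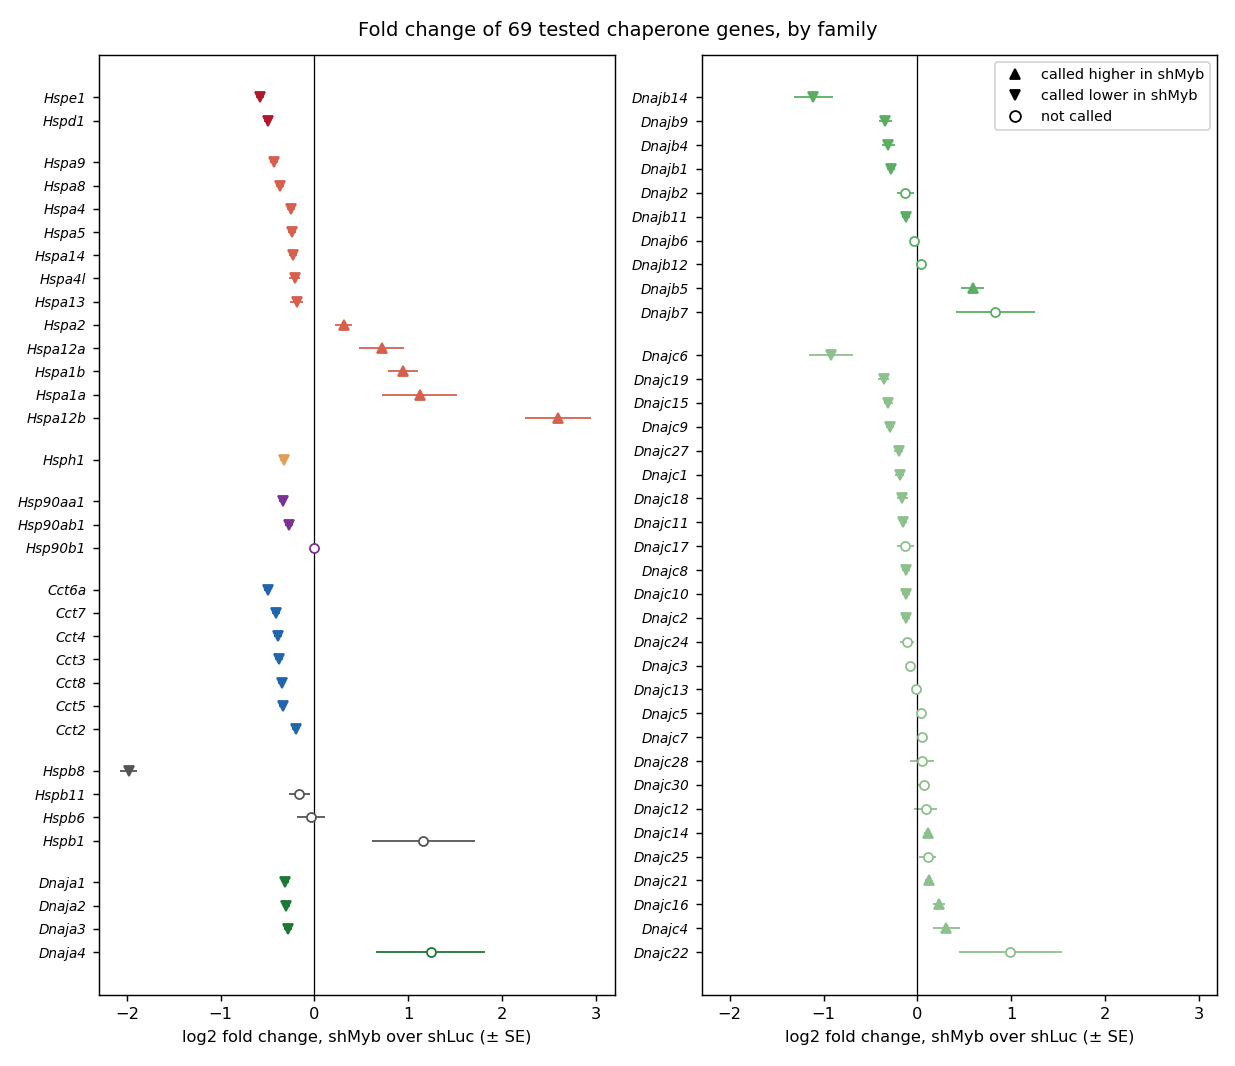
Each symbol is the log2 fold change of 1 of the 69 tested genes, shMyb over shLuc, with its standard error on the horizontal axis, and genes are grouped by family down the page. Triangles pointing down are genes called lower, triangles pointing up genes called higher and open circles genes not called. All 7 tested Cct genes lie between -0.50 and -0.20, while the Hspa genes run from -0.43 (Hspa9) to 2.60 (Hspa12b).

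**Figure D2:**
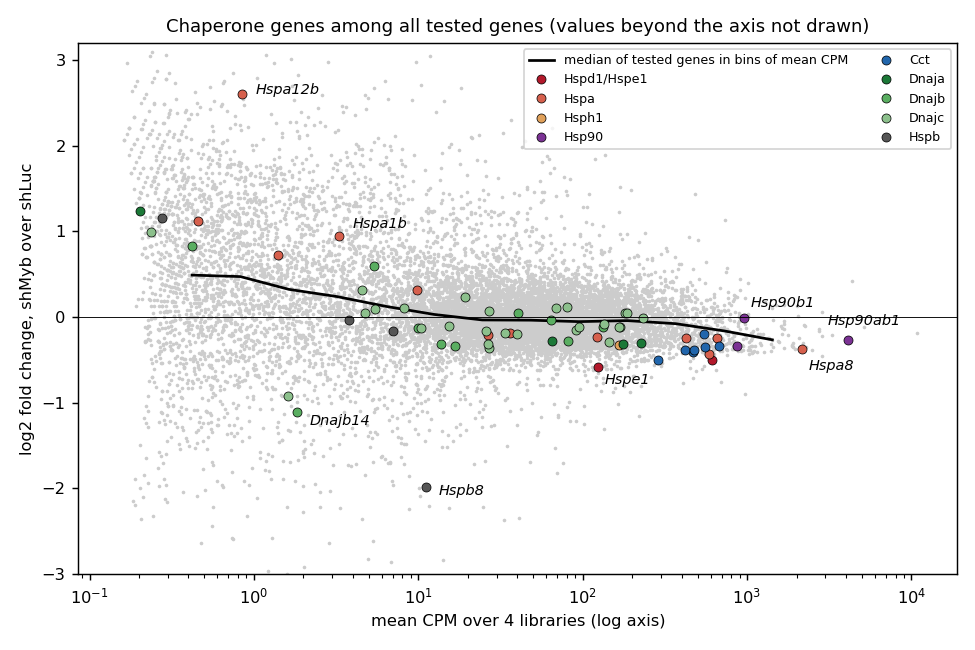
The horizontal axis is the mean CPM over 4 libraries on a log scale and the vertical axis the log2 fold change, shMyb over shLuc. Grey points are all tested genes (26 lie beyond the axis), the black line is their median in bins of mean CPM and coloured points are chaperone genes by family. The line falls towards abundant genes, and Hspe1, Hspd1 and Cct6a lie below it while Hsp90b1 lies above it.

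The mitochondrial chaperonin genes were among the members that differed most at high abundance. Hspe1 (chromosome 1, 55088132 to 55091307, plus strand) was at 97.1 and 101 CPM in the libraries labelled shMyb, against 147 and 148 CPM in shLuc. Hspd1 (chromosome 1, 55077835 to 55088243, minus strand) was at 512 and 503 CPM in the libraries labelled shMyb, against 706 and 731 CPM in shLuc. Every library labelled shMyb lay below both shLuc libraries for the pair, as for 41.2% of all tested genes. Hspe1 fell by 0.58 on the log2 scale (SE 0.04, edgeR adjusted p = 1.3e-12) and Hspd1 by 0.50 (SE 0.04, adjusted p = 1.92e-11). Annotated exons of the 2 genes overlap on opposite strands by 112 bases, and the strand setting of the counting is not given in the sources used here. The ratio of their counts, which needs no scaling between libraries, was 0.189 and 0.200 in the libraries labelled shMyb and 0.208 and 0.203 in shLuc.

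Hspa9 encodes mortalin, the HSP70 of the mitochondrial matrix and the motor of protein import. It was at 505 and 488 CPM in the libraries labelled shMyb, against 663 and 679 CPM in shLuc, and fell by 0.43 (SE 0.04, adjusted p = 3.01e-10). Of the mitochondrial J-domain genes 4 were also called lower. Dnaja3, the class A J-protein of mitochondria, fell by 0.28, and the import motor genes Dnajc19 and Dnajc15 fell by 0.36 and 0.31. Dnajc11, of the outer membrane, fell by 0.15 (adjusted p = 0.00113; -0.091 with library totals alone). Dnajc30 was at 28.4 and 26.4 CPM in the libraries labelled shMyb and at 26.0 and 26.4 CPM in shLuc, and was not called (0.068, adjusted p = 0.298). Members were assigned to mitochondria or the ER (endoplasmic reticulum) by a list made for this report, and the counts by compartment depend on it. Dnajc4, called higher, and Dnajc28, not called, were not assigned to mitochondria there. In all, 7 of 8 mitochondrial members were called lower (87.5%, against 31.7% of all tested genes and 47.5% of those at 100 CPM and above) and 0 higher in edgeR's test, at a median of -0.33. The count of higher calls was also 0 at an unadjusted p below 0.05, with DESeq2 and with limma-voom, and 1 with library totals alone (Dnajc30).

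Every tested TRiC gene was called lower, by edgeR and under each alternative run. TRiC is a ring complex in which each subunit occupies its own place. Of 9 Cct genes in the files 7 were tested, and these 7 were called lower at a median of -0.38. The share called lower was 31.7% over all tested genes. It was 47.5% over those with a mean of at least 100 CPM, the range in which all 7 lay. Cct6a was at 239 and 237 CPM in the libraries labelled shMyb, against 330 and 342 CPM in shLuc (log2 fold change -0.50, SE 0.04, adjusted p = 1.3e-11). Cct2 was at 516 and 499 CPM in the libraries labelled shMyb, against 577 and 589 CPM in shLuc (-0.20, SE 0.04, adjusted p = 4.62e-05). These were the lowest and the highest fold changes among the subunits. Between them lay Cct7 (-0.41), Cct4 (-0.39), Cct3 (-0.38), Cct8 (-0.35) and Cct5 (-0.34). Tcp1, the subunit outside the symbol rule, was at 570 and 539 CPM in the libraries labelled shMyb, against 703 and 718 CPM in shLuc (-0.36, adjusted p = 1.55e-08). The ratio of Cct6a to Cct2 counts was 0.462 and 0.474 in the libraries labelled shMyb, against 0.573 and 0.581 in shLuc. The groups did not overlap, which follows from picking the extreme subunits of these same libraries. With 2 libraries each the smallest two-sided exact permutation p is 0.333.

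Scaled by transcript length, as mean CPM per kilobase of the principal GENCODE transcript, the subunits other than Cct6a ran from 146 (Cct4) to 323 (Cct5) in the libraries labelled shMyb and from 191 (Cct4) to 409 (Cct5) in shLuc. Cct6a has no coding transcript in that annotation and was left out of the scale. A pair of relatives was scarcely counted: Cct6b, a testis form, had 4 and 9 counts in the libraries labelled shMyb and 5 and 7 in shLuc, and Cct8l1 had 0 counts in every library.

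Of 12 tested HSP70 genes 7 were called lower (58.3%) and 5 higher (41.7%), at a median of -0.20. The shares over all tested genes were 31.7% and 30.6%. The higher ones were the stress-inducible copies Hspa1a and Hspa1b and also Hspa2, Hspa12a and Hspa12b. All 5 were at 11.1 CPM or less in every library. Below a mean of 10 CPM 37.4% of all tested genes were called higher, and at 100 CPM and above 47.5% were called lower. Hspa8, the main cytosolic HSP70, was at 1903 and 1836 CPM in the libraries labelled shMyb, against 2369 and 2469 CPM in shLuc (-0.37, SE 0.04, adjusted p = 1.9e-08). Hspa1b, one of the stress-inducible copies, was at 4.31 and 4.39 CPM in the libraries labelled shMyb, against 2.15 and 2.36 CPM in shLuc (0.94, SE 0.16, adjusted p = 1.35e-05). Every library labelled shMyb lay below shLuc for Hspa8 and above it for Hspa1b, as for 41.2% and 41.0% of all tested genes. Hspa1a had 20 and 28 counts in the libraries labelled shMyb, against 12 and 12 in shLuc (1.12, SE 0.40, adjusted p = 0.0185). The coding sequences of Hspa1a and Hspa1b are 99.4% identical, so reads may be split or lost between them and the level of each copy is uncertain. The Hspa1a call ended with DESeq2, an alternative count test, with a loess correction of each library for the trend of fold change with abundance (0.60), and without shMyb replicate 2 (0.83) or shLuc replicate 2 (1.05). The Hspa1b to Hspa8 ratio was 0.00227 and 0.00239 in the libraries labelled shMyb, against 0.000909 and 0.000958 in shLuc.

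Of 13 tested immediate early genes, another group that responds to stress and handling, 5 were called higher (38.5%) and 2 lower (15.4%), at a median of 0.25. The share called higher was near the 30.6% of all tested genes. Jun was at 68.8 and 70.3 CPM in the libraries labelled shMyb, against 54.2 and 52.9 CPM in shLuc, and Zfp36 rose by 0.34 and Gadd45b by 0.25, while Nr4a1 fell by 0.46. Their part in the Hspa1a and Hspa1b values was not tested. Hspa12b and Hspa12a encode distant HSP70 relatives. Hspa12b (chromosome 2, 131127280 to 131146321, plus strand) had 56 and 56 counts in the libraries labelled shMyb, against 7 and 13 in shLuc. Its level was 1.44 and 1.49 CPM against 0.175 and 0.298 CPM in shLuc, and the log2 fold change was 2.60 (SE 0.35, adjusted p = 5.59e-07). Hspa12a rose by 0.72 (adjusted p = 0.012), at 1.69 and 1.78 CPM against 1.0 and 1.1 CPM in shLuc. That call ended with DESeq2, with the trend correction (0.38), and without shMyb replicate 2 (0.68) or shLuc replicate 1 (0.63). Hspa2, best known from testis, rose by 0.31 (adjusted p = 0.00321), a call that ended with DESeq2. The myeloid markers, at the summed levels given above, were 4 of 7 higher, beside 37.4% of all tested genes below 10 CPM. Elane was at 0 in every library, and the part of myeloid cells in the values of these HSP70 genes was not tested.

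The exchange factors of the HSP110 branch were called lower beside Hspa8, as were 31.7% of all tested genes and 47.5% of those at 100 CPM and above. Hsph1 was at 148 and 148 CPM in the libraries labelled shMyb, against 181 and 190 CPM in shLuc (-0.33, SE 0.04, adjusted p = 3.93e-08). Hspa4 was at 395 and 384 CPM in the libraries labelled shMyb, against 457 and 470 CPM in shLuc (-0.25, SE 0.04, adjusted p = 1.83e-06). Hspa4l fell by 0.21, a call that ended with DESeq2 and without shMyb replicate 2 (-0.14). Hspa14, which binds ribosomes with the J-protein Dnajc2, fell by 0.23. Dnajc2 fell by 0.12, which was no longer called when libraries were scaled by their totals alone or when the trend with abundance was corrected. Hspa1l had at most 4 counts in any library.

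Both cytosolic HSP90 genes were called lower, and the HSP90 gene of the endoplasmic reticulum (ER) was not called. Hsp90ab1, the constitutive cytosolic form, was at 3801 and 3686 CPM in the libraries labelled shMyb, against 4465 and 4571 CPM in shLuc (-0.27, SE 0.04, adjusted p = 3.29e-06). Hsp90aa1, the inducible cytosolic form, was at 774 and 771 CPM in the libraries labelled shMyb, against 970 and 981 CPM in shLuc (-0.34, SE 0.04, adjusted p = 2.22e-08). Hsp90b1, which encodes GRP94, the ER form, was at 961 and 947 CPM in the libraries labelled shMyb, against 957 and 962 CPM in shLuc (-0.0081, SE 0.04, adjusted p = 0.861). The groups were apart for the cytosolic pair, as for 41.2% of all tested genes in that direction, and overlapped for Hsp90b1. The ratio of Hsp90b1 to Hsp90ab1 counts was 0.253 and 0.257 in the libraries labelled shMyb, against 0.214 and 0.211 in shLuc, where the smallest exact permutation p is again 0.333. Fold changes declined with abundance across all genes, and a correction for that trend gave -0.067 for Hsp90ab1 (adjusted p = 0.0254), -0.21 for Hsp90aa1 and 0.12 for Hsp90b1, which was then called higher (adjusted p = 0.00107). The same correction gave -0.20 for Hspa8, -0.16 for Hspa4, -0.13 for Hspa5 and -0.10 for Cct2, all still called. These members are among the genes to which the trend was fitted.

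**Figure D3:**
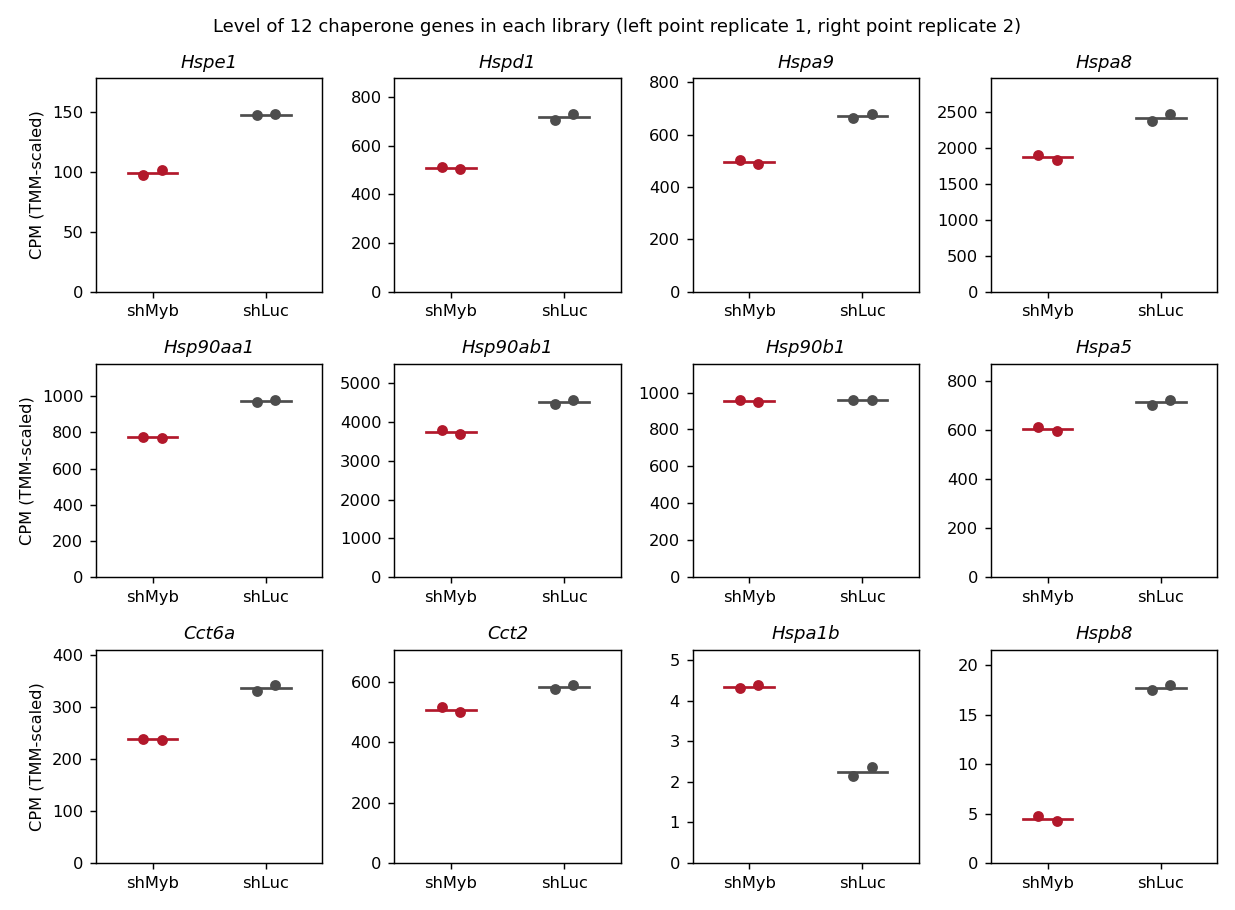
Each panel shows 1 gene, with the CPM of each library on a vertical axis that starts at 0, the shMyb libraries on the left and the shLuc libraries on the right. Points are single libraries and bars are means of 2. The libraries labelled shMyb lie below shLuc in 10 panels, above it for Hspa1b and level with it for Hsp90b1.

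Members of the ER were called in both directions. Of 15 ER members 8 were called lower (53.3%), 2 higher (13.3%) and 5 not called, at a median of -0.12. Over all tested genes 31.7% were called lower and 30.6% higher, and 47.5% were called lower at 100 CPM and above. Hspa5, which encodes BiP, the HSP70 of the ER, was at 612 and 597 CPM in the libraries labelled shMyb, against 700 and 723 CPM in shLuc (-0.24, SE 0.04, adjusted p = 6.08e-06). The ratio of Hspa5 to Hspa9 counts was 1.21 and 1.22 in the libraries labelled shMyb, against 1.06 and 1.07 in shLuc. Hspa13 fell by 0.19 (adjusted p = 0.0284), with 36.7 and 30.8 CPM in the libraries labelled shMyb against 38.3 and 38.6 CPM in shLuc. That call rested on shMyb replicate 2 (-0.068 without it, and -0.33 without shMyb replicate 1), and it also ended with DESeq2, library totals (-0.12) and the trend correction (-0.16).

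Among ER J-proteins, Dnajb9 fell by 0.34 and Dnajb11, a co-chaperone of BiP, by 0.12. Dnajc1 fell by 0.19, Dnajc18 by 0.16 and Dnajc10, a disulfide reductase, by 0.12. The calls of Dnajb11 and Dnajc10 ended with library totals (-0.055 and -0.057) and with the trend correction (-0.072 and -0.076). The calls of Dnajc18 and Dnajc10 also ended with DESeq2, that of Dnajc10 without shLuc replicate 2 (-0.11), and that of Dnajc18 with library totals (-0.093) and without shMyb replicate 2 (-0.14) or shLuc replicate 1 (-0.15). Dnajb14, of the ER membrane, showed the widest gap of the group, at 1.18 and 1.12 CPM in the libraries labelled shMyb against 2.60 and 2.39 CPM in shLuc (-1.11, SE 0.21, adjusted p = 8.04e-05). An exon of it overlaps another annotated transcript on its strand. Dnajb12, its close relative, was at 40.1 and 41.5 CPM in the libraries labelled shMyb and 39.2 and 40.1 CPM in shLuc (0.041, adjusted p = 0.464). Dnajc16 rose by 0.23 (adjusted p = 0.00296) and Dnajc14 by 0.11 (adjusted p = 0.0262). The Dnajc16 call ended with DESeq2. The Dnajc14 call ended with DESeq2, without the low-count filter (0.091), with the replicate number as a block (edgeR adjusted p = 0.0624) and when shMyb replicate 1 (0.094), shLuc replicate 1 (0.067) or shLuc replicate 2 (0.12) was left out. Dnajc3, an inhibitor of translational stress kinases, was at -0.083 (adjusted p = 0.0529) and was called lower without the low-count filter (-0.10), with replicate numbers crossed as a block and without shLuc replicate 1 (-0.12). Dnajc25 (0.11) and Dnajc22 (0.99, on 13 and 11 counts in the libraries labelled shMyb against 9 and 4 in shLuc) were not called.

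Of 10 tested Dnajb genes 5 were called lower (50%), 1 higher (10.0%) and 4 not called, and of 4 Dnaja genes 3 were called lower (75%), beside 31.7% lower and 30.6% higher over all tested genes. Dnaja1 was at 157 and 156 CPM in the libraries labelled shMyb, against 191 and 198 CPM in shLuc (-0.31, SE 0.04, adjusted p = 6.5e-08). Dnaja2 was at 209 and 197 CPM in the libraries labelled shMyb, against 246 and 253 CPM in shLuc (-0.30, SE 0.04, adjusted p = 2.85e-07). Dnajb1, the classical HSP40, was at 75.2 and 71.6 CPM in the libraries labelled shMyb, against 85.8 and 92.4 CPM in shLuc (-0.28, SE 0.04, adjusted p = 4.13e-06). Dnajb4 fell by 0.31, whereas Dnajb5 rose by 0.59 (adjusted p = 1.25e-04), at 6.44 and 6.44 CPM against 4.21 and 4.34 CPM in shLuc. Dnajb6, a suppressor of aggregation, was at -0.04 and Dnajb2 at -0.13, and neither was called. Dnaja4 (1.24, adjusted p = 0.0675, called higher by limma-voom) and Dnajb7 (0.83, adjusted p = 0.0856) were below 1 CPM.

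The Dnajc genes, whose J domains serve many separate processes, were called in both directions, as were genes at large. Of 26 tested 11 were called lower (42.3%, against 31.7% of all tested genes), 4 higher (15.4%, against 30.6%) and 11 not called, at a median of -0.10. Dnajc9, a histone chaperone, was at 131 and 129 CPM in the libraries labelled shMyb, against 156 and 161 CPM in shLuc (-0.29, SE 0.04, adjusted p = 2.83e-07). Dnajc27 fell by 0.20. Dnajc8, found with splicing factors, fell by 0.12 and, like Dnajc2, was not called with library totals alone or with the trend correction. Dnajc6, which encodes the clathrin uncoating factor auxilin, had 50 and 35 counts in the libraries labelled shMyb, against 85 and 90 in shLuc (-0.92, SE 0.23, adjusted p = 0.00152). Dnajc21, a ribosome biogenesis factor, rose by 0.12, and its call ended with DESeq2 and without shMyb replicate 1, shLuc replicate 1 or shLuc replicate 2. Dnajc4 rose by 0.31 at 5.08 and 4.93 CPM against 4.48 and 3.60 CPM in shLuc, on an edgeR adjusted p of 0.0487. That call ended without the low-count filter, with DESeq2, limma-voom, the replicate block and the trend correction, and without shMyb replicate 1, shMyb replicate 2 or shLuc replicate 2. Dnajc13 of endosomes (-0.012), Dnajc5, the cysteine string protein (0.041), and Dnajc7 (0.046), which binds both HSP70 and HSP90, were not called. Dnajc5 and Dnajc7 were called higher with library totals alone and with the trend correction. Dnajc12, Dnajc17, Dnajc24 and Dnajc28 were not called either, apart from Dnajc17, called lower without shLuc replicate 1.

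The small heat shock genes were scarce, with a single large change. Hspb8 (chromosome 5, 116408491 to 116422864, minus strand), which works with the BAG protein Bag3 in the autophagy of misfolded proteins, was at 4.77 and 4.21 CPM in the libraries labelled shMyb, against 17.5 and 18 CPM in shLuc. Its log2 fold change of -1.98 (SE 0.09, adjusted p = 1.22e-15) was the lowest of the tested members, and the counts were 186 and 158 against 698 and 782 in shLuc. With Dnajb14 and Dnajc6 it was 1 of 3 members called lower by at least 1.5-fold. These 3 of 69 tested members are a share near the 4.67% of all tested genes. Another 5 of the 69 were called higher by as much, a share below the 12.7% of all tested genes. Bag3 was near the limit of counting, at 0.411 and 0.453 CPM in the libraries labelled shMyb and 0.726 and 0.551 CPM in shLuc, and was not called. The OP9 marker Fn1, fibronectin, was lower in the same libraries (6.96 and 7.40 CPM against 22.7 and 18.6 CPM in shLuc), while Col1a1, at 12.7 and 14.8 CPM against 15 and 11.2 CPM in shLuc, overlapped between the groups. Of 9 tested OP9 markers, Fn1 was the 1 called lower, while Sparc (0.42, adjusted p = 0.00826) and Postn (1.01, adjusted p = 0.0379) were called higher. The part of feeder cells in the Hspb8 value was not tested. Hspb6 (-0.037), Hspb11 (-0.16) and Hspb1 (1.16, adjusted p = 0.0675, on 13 and 16 counts against 11 and 3 in shLuc) were not called. Hspb11 was called lower with the trend correction (-0.27), and Hspb1 higher by limma-voom, with the crossed block and without shLuc replicate 1. Hspb2, Hspb3, Hspb7 and Hspb9 had at most 2 counts in any library.

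The 12 members that were not tested lay near or below the limit of counting, where 3 counts were worth 0.0689 to 0.0799 CPM. Of these, 5 had 0 counts in all libraries: Cct8l1, Dnajb8, Dnajc5b, Dnajc5g and Hspb3. Dnajb13, linked to sperm tails, had 3 and 2 counts in the libraries labelled shMyb and 15 and 8 in shLuc, and Dnajb3 had at most 2.

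Among partners that the symbol rule leaves out, the shares called lower are to be read beside 31.7% of all tested genes, and 47.5% of those at 100 CPM and above. Of 24 HSP90 co-chaperones 15 were called lower (62.5%) and 3 higher (12.5%), at a median of -0.22. Fkbp5, an immunophilin and a classical glucocorticoid-responsive gene, was at 137 and 135 CPM in the libraries labelled shMyb, against 295 and 310 CPM in shLuc (-1.15, SE 0.04, adjusted p = 1.47e-18). Ptges3, the co-chaperone p23, fell by 0.49, Ppid by 0.44 and Fkbp4 by 0.41. Of 13 genes listed as HSP70 partners 9 were lower (69.2%) and 1 higher, at a median of -0.25. Bag2, an exchange factor, was at 21.6 and 21.1 CPM in the libraries labelled shMyb, against 33.3 and 37.8 CPM in shLuc (-0.74, adjusted p = 4.83e-10). Ubqln2 fell by 0.52 and St13 by 0.30. The 1 higher call was Hspbap1 (1.26), at 5.62 and 4.85 CPM in the libraries labelled shMyb against 2.53 and 1.86 CPM in shLuc, whose product is named for binding the small heat shock protein HSPB1 and not HSP70. Of 11 prefoldin and TRiC partner genes, Tcp1 among them, 9 were lower (81.8%) and 0 higher in edgeR's test at a median of -0.21, with Pfdn4 at -0.39, Uxt at -0.41 and Vbp1 at -0.22. No gene of that list was higher at an unadjusted p below 0.05, by DESeq2 or by limma-voom.

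Of 17 mitochondrial partners 15 were lower (88.2%) and 0 higher in edgeR's test, at a median of -0.19, among them the exchange factor Grpel1 (-0.34), the protease subunit Clpp (-0.47) and the import channel genes Timm23 (-0.48) and Timm17a (-0.36). In that list too the higher count was 0 at an unadjusted p below 0.05, with DESeq2 and with limma-voom, and it was 1 with library totals alone and with the trend correction. Of 21 ER folding partners 13 were lower (61.9%) and 4 higher (19.0%), at a median of -0.21, with Sec61b at -0.57, Manf at -0.41, Sdf2l1 at -0.34 and Ero1lb at 0.33. The heat shock factors themselves were not called. Hsf1, the main activator of the heat shock genes, was at 49.5 and 50.8 CPM in the libraries labelled shMyb and 49.2 and 50.7 CPM in shLuc (0.0057, SE 0.04, adjusted p = 0.92). Hsf2 was at -0.07 (adjusted p = 0.289), and Hsbp1, a binding partner of Hsf1, fell by 0.12 (adjusted p = 0.0208), a call that ended with library totals (-0.054), DESeq2, the trend correction (-0.08) and without shMyb replicate 1 (-0.11) or shLuc replicate 2 (-0.12).

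**Figure D4:**
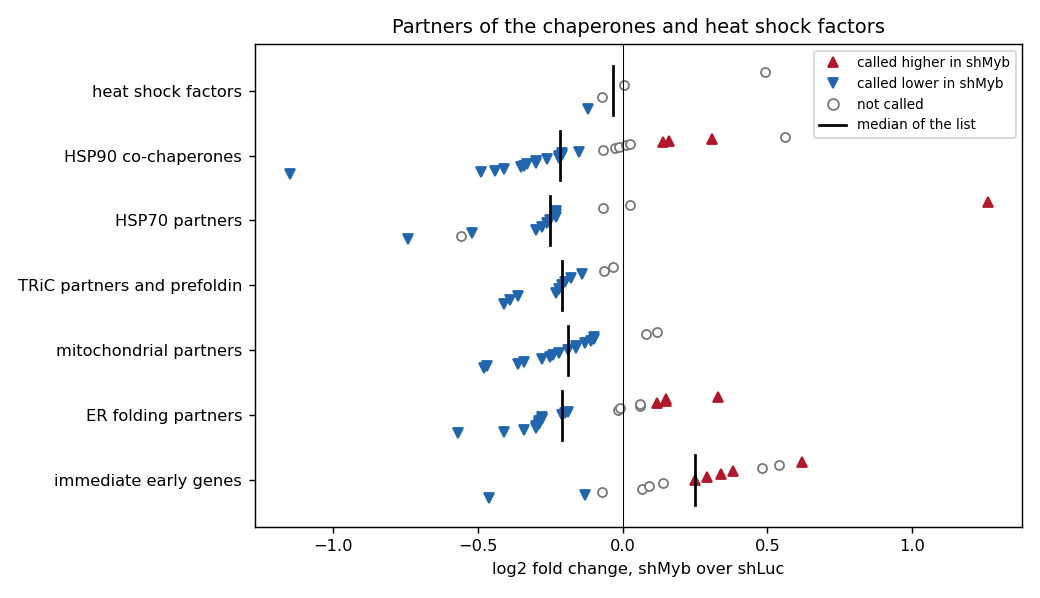
Each symbol is a tested gene of a partner list, with its log2 fold change, shMyb over shLuc, on the horizontal axis and lists down the page, and vertical bars are list medians. Blue triangles are called lower, red triangles called higher and open circles not called. The medians of the co-chaperone, TRiC, mitochondrial and ER lists lie between -0.25 and -0.19, that of the heat shock factors at -0.03 and that of the immediate early genes at 0.25.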

How the data were processed

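The authors deposited raw counts of reads for 23420 gene symbols, with a file for each of 4 libraries. FastQC, STAR, HTSeq, DESeq2 and mm10 appear in the submitters' processing notes. Versions, annotation, strand setting and filters were not given in the sources used here. Members, lists and tests were chosen with earlier results of these data known. The edgeR package (4.0.16, R 4.3.3) filtered genes by filterByExpr (minimum count 10), scaled by TMM and compared groups by a robust quasi-likelihood fit. Benjamini-Hochberg adjustment ran across the 12610 genes that passed, and a call needs an adjusted p below 0.05. CPM uses TMM-scaled totals. The text names every tested HSP70, HSP110, HSP90, chaperonin and small heat shock gene, the tested J-domain genes of the ER and mitochondria, the J-domain gene with the highest mean in each class, those called at 1.5-fold with a mean of 2 CPM in a group, and up to 4 called genes of smallest p per partner list. Other genes named were chosen after their values were seen. Coordinates, transcript lengths and exon overlaps are from GENCODE M21 (GRCm38, which is mm10), 1-based, with all 81 members matched. Promoter windows are from RefSeq, GRCm38.p6. The 2-unit motif was added after the data were seen, and protein sequences were not used here. Alternatives were DESeq2 1.42.0, limma-voom (limma 3.58.1), a replicate block, a loess correction per library for the trend with abundance, leaving out each library, scaling by RLE or by totals alone, and testing genes unfiltered or at 1 CPM and above. The edgeR, DESeq2 and limma-voom tests were run on simulated counts. That simulation changed a small set of genes, evenly up and down and with no trend with abundance. It thus cannot speak to the trend or to the many calls in these data.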

Additional observations from a re-analysis of the deposited data

How the results depend on the processing

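No called member changed direction under the 13 alternatives, and 33 to 39 of the 39 lower calls and 3 to 10 of the 10 higher calls were kept. With library totals alone, 60.1% of all called genes were higher against 49.1% with TMM, Dnajc genes were 7 higher and 7 lower, and Hsp90b1 (0.055), Hspb6 (0.026) and Dnajc13 (0.051) were above 0. DESeq2 called 6028 genes, with 3 members higher, of which 2 were Hspa and 0 Dnajc genes. Without the low-count filter 2 Dnajc genes were higher. A filter at 1 CPM put Hsp90b1 at 0.004. limma-voom called 1 Dnaja and 1 Hspb gene higher. The trend correction called 3 Hspa genes and 1 Hsp90 gene higher and 2 Hspb genes lower, with Hsp90b1 at 0.12 and Dnajc13 at 0.051. Leaving out 1 library gave 6 to 8 members higher (6 without shLuc replicate 2), 3 to 5 Hspa genes higher (3 without shMyb replicate 2), 1 to 3 Dnajc genes higher (1 without shMyb replicate 1 or shLuc replicate 2, 2 without shLuc replicate 1) and 1 Hspb gene higher without shLuc replicate 1. Hsp90b1 then ran from -0.034 to 0.0011 and Hspb6 from -0.24 to 0.13. The cause of these changes was not tested. Nothing in the labels says that replicate numbers pair the samples, and same-numbered deviations correlated at -0.195. The replicate block called 7341 genes, against 7849 without it, and 2 Dnajc genes higher. A crossed block, chosen after seeing the data, called 8593 genes and 1 Hspb gene higher. With 2 libraries a group, members below about 1 CPM rest on few counts.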
